A study of Mus musculus with 12 samples.

Results

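The genes described here encode splicing factors: the proteins that recognise the 3′ end of introns, the SR proteins and their relatives, the exon junction complex and the kinases that act on SR proteins. Their 36 members were chosen by gene name, and all 36 were found among the 26409 listed genes. Hippocampal RNA was sequenced from 12 C57Bl/6 mice aged 6 to 12 months, in 4 groups of 3 libraries, made up of WT and *Dek* cKO mice of either sex. *Dek* cKO mice descend from *Dek* fl/fl mice crossed to CMV-Cre mice, the Cre was later bred out, and exons 3 and 4 of *Dek*, which lie between loxP sites, are therefore missing from the germline in every cell type. All animals had been through behavioral assays before the tissue was taken. Levels are given in TPM, in which the reads of a gene are divided by its length and scaled to a common total per library.

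Splicing removes introns from the primary transcript, and the 3′ end of an intron is read by several proteins together. U2AF binds there with its large subunit U2af2 on the pyrimidine tract and its small subunit U2af1 on the AG dinucleotide, SF1 holds the branch point, and the SF3A and SF3B proteins of the U2 particle then replace SF1. SR proteins bind exons and recruit U1 and U2AF, and their activity and place in the nucleus are set by SRPK and CLK kinases. DEK is known mainly as a chromatin protein. It has also been found in complexes with SRm160, the product of *Srrm1*, and it binds U2AF and takes part in reading the AG at the 3′ splice site. The comparison asks whether the mRNA of these proteins differed in hippocampus without DEK. The values are sums over all transcripts of a gene, so they hold no measure of how any intron was spliced.

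*Dek* mRNA averaged 48.3 ± 2.58 TPM in WT (SD, n = 6) and 7.23 ± 1.32 TPM in *Dek* cKO (SD, n = 6), a log2 fold change of -2.74 (SE 0.10, limma adjusted p = 1.17e-08), and the genotypes did not overlap. The sex labels of 2 libraries went against their Y-linked genes. *Eif2s3y* stood at 72.7 TPM and *Ddx3y* at 20.4 TPM in the library labelled female *Dek* cKO replicate 3, whereas in the library labelled male *Dek* cKO replicate 1 *Eif2s3y* stood at 0.111 TPM and *Ddx3y* was listed at 0. For comparison, *Eif2s3y* ranged from 72.4 to 92.0 TPM in male WT and from 0.209 to 0.993 TPM in female WT. Both libraries were kept under their labels, and the comparisons within a sex are also given without them. A different prefix opens the names of the 3 libraries from female WT than of the other 9, and what this prefix stands for cannot be told apart from female WT. All 9 hippocampal neuron markers were detected at a mean of at least 1 TPM, and their summed level was 415 to 468 TPM in WT and 378 to 462 TPM in *Dek* cKO. The summed markers of choroid plexus, which can be carried along in dissection, ran from 70.0 to 3048 TPM in WT and from 46.5 to 4458 TPM in *Dek* cKO. In bulk tissue, fewer cells of a type and less RNA per cell cannot be told apart.

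The splicing factors were expressed in all libraries, and most varied little between them. All 36 passed the filter of a mean of at least 0.1 TPM, none was listed at 0 in any library, 35 averaged at least 10 TPM and 12 averaged at least 100 TPM. Their summed level was 2809 ± 69.1 TPM in WT (range 2706 to 2907, n = 6) and 2805 ± 92.2 TPM in *Dek* cKO (range 2689 to 2908, n = 6). The coefficient of variation over the 12 libraries, the SD divided by the mean, had a median of 7.0% over the members. This compares with 8.91% over the 9172 tested genes in the same range of mean TPM, though levels within that range were not matched. The coefficient was under 10% for 28 members, with *Srsf2* lowest at 3.16% and *Tra2a* highest at 27.5%. In 5 members, *Tra2a*, *Srsf9*, *Srrm2*, *Srpk1* and *Snrnp70*, the highest library exceeded the lowest by over 1.5 times.

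**Figure D1:**
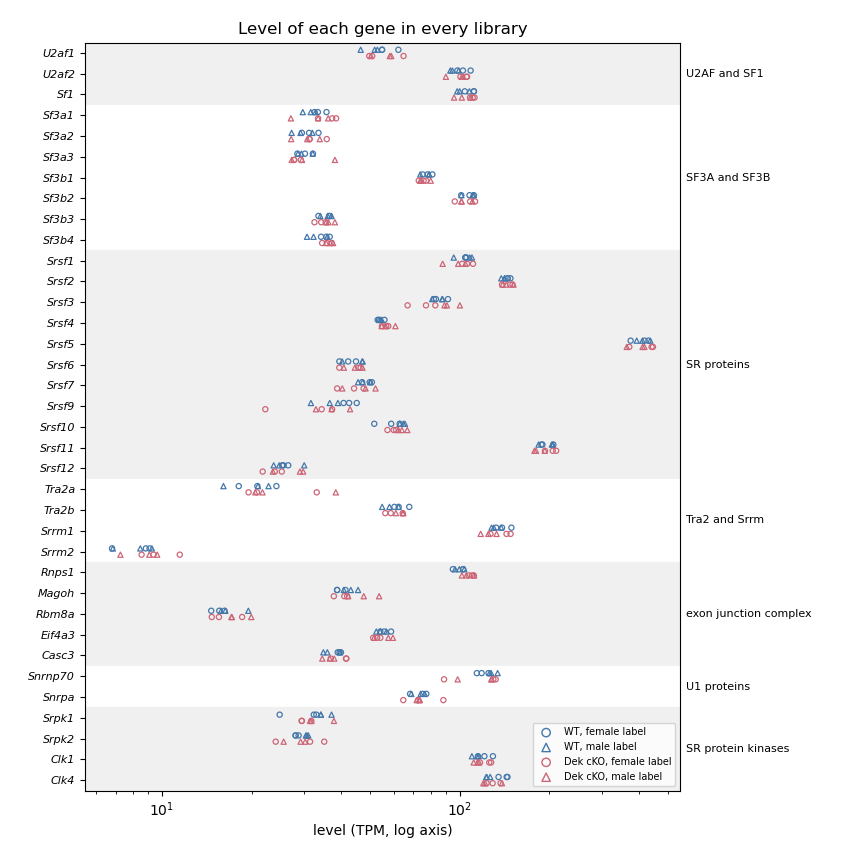
Level of each of the 36 genes in TPM (log axis) in each of the 12 libraries, grouped by role; blue symbols are WT and red symbols *Dek* cKO, circles are libraries labelled female and triangles male. *Srsf5* lies highest at a mean of 410.1 TPM and *Srrm2* lowest at 8.72 TPM, and *Tra2a* and *Srsf9* show the widest spread.

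Among the proteins that read the 3′ end of the intron, mean levels over the 12 libraries were 106 TPM for *Sf1*, 100.3 TPM for *U2af2* and 54.7 TPM for *U2af1*. The mRNA of the small U2AF subunit was thus below that of the large subunit, and the ranges of these 2 genes did not overlap. The SF3B proteins, which clamp the U2 particle on the branch point, ran from 106 TPM for *Sf3b2* and 76.6 TPM for *Sf3b1*, the largest subunit, down to 35.5 TPM for *Sf3b3* and 35.2 TPM for *Sf3b4*. The 3 genes of SF3A, which joins SF3B in the mature U2 particle, lay close together, with 33.5 TPM for *Sf3a1*, 31.1 TPM for *Sf3a2* and 30.1 TPM for *Sf3a3*. Of the 2 U1 proteins, which belong to the particle at the other end of the intron, *Snrnp70* averaged 121 TPM and *Snrpa* 73.6 TPM.

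The SR proteins and their relatives covered the widest range. *Srsf5* led at 410.1 TPM, followed by *Srsf11* at 195 TPM, *Srsf2* at 144 TPM and *Srsf1* at 103 TPM. *Srsf3* averaged 84.9 TPM, *Srsf10* 61.5 TPM, *Srsf4* 55.5 TPM, *Srsf7* 46.8 TPM, *Srsf6* 43.8 TPM and *Srsf9* 36.9 TPM, and *Srsf12* was lowest of the 11 at 25.8 TPM. Both Tra2 genes encode proteins with RS domains on either side of an RNA-binding domain, and *Tra2b* at 61.3 TPM stood above *Tra2a* at 23.1 TPM. *Srrm1* averaged 134 TPM, and *Srrm2*, which encodes a very large nuclear speckle protein, averaged 8.72 TPM. The exon junction complex marks exon joints after splicing. Its core genes averaged 54.9 TPM for the helicase gene *Eif4a3*, 42.7 TPM for *Magoh*, 38.2 TPM for *Casc3* and 16.8 TPM for *Rbm8a*, whose product pairs with Magoh, whereas its splicing-linked partner *Rnps1* averaged 104 TPM. *Magoh* has a near-identical copy, *Magohb* (8.95 to 15.8 TPM), so its value depends on how shared reads were divided. The CLK kinases, at 131 TPM for *Clk4* and 118 TPM for *Clk1*, stood above the SRPK kinases, at 32.3 TPM for *Srpk1* and 29.4 TPM for *Srpk2*. Along the whole order of mean levels, the ranges of 32 of the 35 neighbouring pairs overlapped.

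Over both sexes, no splicing factor differed between *Dek* cKO and WT past the threshold of a limma adjusted p under 0.05 and a fold change over 1.2 (0 of 36), where 0.148% of the 18197 tested genes passed. The unadjusted p was under 0.05 for 1 member, *Rnps1*, or 1 of 36, against 6.64% of all tested genes. None of the 36 had 6 *Dek* cKO values that were all above or all below the 6 WT values, which was so for 0.676% of tested genes. The fitted log2 fold changes ran from -0.21 to 0.28, with 19 above 0 and 17 below 0. Their median was 0.0047, beside 0.016 over all tested genes, and the median of their sizes without sign was 0.030, beside 0.089 over all tested genes. The 95% interval lay within 1.2-fold of no change for 32 of the 36 members (88.9%), and for 36.6% of all tested genes. The tested genes reach down to a mean of 0.1 TPM, whereas 35 members averaged at least 10 TPM. These comparisons of sizes and intervals, here and below, were thus not matched for level. The members whose interval reached beyond 1.2-fold were *Tra2a*, *Srsf9*, *Srrm2* and *Snrnp70*.

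**Figure D2:**
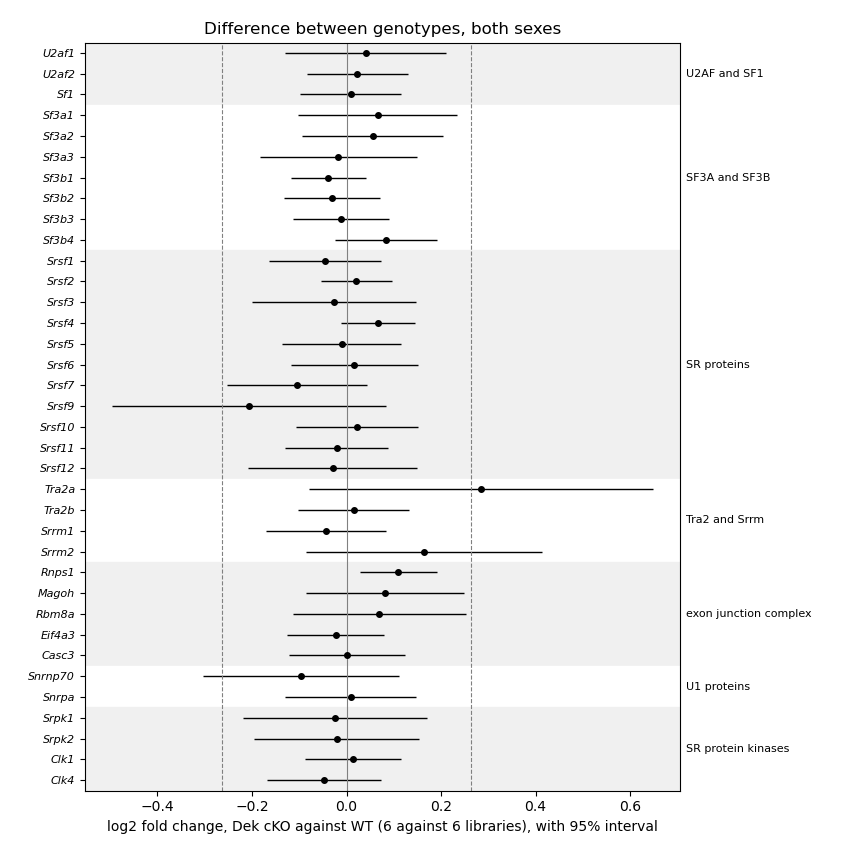
Log2 fold change of each of the 36 genes between *Dek* cKO and WT (6 against 6 libraries) as points with 95% intervals from limma, grouped by role; dashed lines mark a fold change of 1.2 in either direction. The intervals of *Tra2a*, *Srsf9*, *Srrm2* and *Snrnp70* cross a dashed line, and that of *Rnps1* lies above 0 between 0.029 and 0.19.

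By role, the 3 genes of U2AF and SF1 all had positive fold changes with a median of 0.023, and all 3 intervals lay within 1.2-fold. All 7 SF3A and SF3B genes also had intervals within 1.2-fold, with 3 values above 0 and a median of -0.011. Of the 11 SR protein genes, 4 had values above 0, the median was -0.021 and 10 intervals lay within 1.2-fold. The exon junction complex had 4 of 5 values above 0, a median of 0.070 and all 5 intervals within 1.2-fold. The 4 kinase genes had a median of -0.022 with 1 value above 0, and all 4 intervals lay within 1.2-fold. Tra2 and Srrm genes had a median of 0.090 with 3 of 4 values above 0, and only 2 of their intervals lay within 1.2-fold. The U1 genes had 1 value above 0 and 1 interval within 1.2-fold. Summed over the genes of a role, mean levels in WT and *Dek* cKO were 259 and 263 TPM for U2AF and SF1, 348 and 348 TPM for SF3A and SF3B, 1214 and 1202 TPM for SR proteins and 251 and 262 TPM for the exon junction complex.

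*U2af1* (ENSMUSG00000061613, GRCm38 chr17:31647081-31658892, minus strand) and *U2af2* (ENSMUSG00000030435, chr7:5062143-5079938, plus strand) encode the U2AF subunits whose contact with the 3′ splice site involves DEK. *U2af1* levels in replicates 1 to 3 were 62.3, 54.9 and 54.9 TPM in female WT, 51.8, 52.9 and 46.5 TPM in male WT, 49.7, 50.9 and 64.8 TPM in female *Dek* cKO, and 50.4, 58.3 and 58.9 TPM in male *Dek* cKO. The highest value belonged to the library labelled female *Dek* cKO replicate 3 and the lowest to a male WT library, and the genotypes overlapped widely. The log2 fold change was 0.041 (SE 0.079, 95% interval -0.13 to 0.21, limma adjusted p = 0.973), and without the library labelled female *Dek* cKO replicate 3 it was -0.0056. *U2af2* levels were 98.3, 103 and 109 TPM in female WT, 93.1, 99.3 and 94.6 TPM in male WT, 106, 101 and 105 TPM in female *Dek* cKO, and 103, 102 and 89.9 TPM in male *Dek* cKO. Here the lowest of all 12 values was male *Dek* cKO replicate 3, while the other 5 *Dek* cKO values lay inside the WT range. For *U2af2* the log2 fold change was 0.023 (SE 0.050, 95% interval -0.084 to 0.13, limma adjusted p = 0.978), 0.057 without that library and 0.0045 without male WT replicate 1.

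*Srrm1* (ENSMUSG00000028809, GRCm38 chr4:135320484-135353321, minus strand) encodes SRm160, a splicing coactivator with arginine-serine repeats that has been isolated together with DEK. Its levels were 133, 149 and 139 TPM in female WT, 128, 138 and 130.3 TPM in male WT, 144, 148 and 127 TPM in female *Dek* cKO, and 133, 125 and 118 TPM in male *Dek* cKO. The genotypes overlapped, and in both of them the mean of the libraries labelled female was above that of the libraries labelled male. The log2 fold change between genotypes was -0.043 (SE 0.059, 95% interval -0.17 to 0.085, limma adjusted p = 0.950). With 1 library left out it ran from -0.077, without female *Dek* cKO replicate 2, to -0.0098, without male *Dek* cKO replicate 3.

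*Rnps1* (ENSMUSG00000034681, GRCm38 chr17:24414565-24425901, plus strand) encodes an activator of splicing that stays with the exon junction complex. Its levels were 94.9, 103 and 103 TPM in female WT, 96.6, 104 and 99.8 TPM in male WT, 112, 107 and 110.0 TPM in female *Dek* cKO, and 105, 102 and 112 TPM in male *Dek* cKO. The *Dek* cKO values were above the highest WT value in 5 of 6 libraries and above the WT median in 6 of 6. The mean was 108 ± 3.96 TPM in *Dek* cKO and 100.1 ± 3.64 TPM in WT (SD, n = 6 each), a fold change of 1.08 (95% interval 1.02 to 1.14). On the log2 scale the difference was 0.11 (SE 0.038, unadjusted p = 0.0119), and it failed the correction over all genes, with a limma adjusted p of 0.568. *Rnps1* had the smallest unadjusted p of the members, and over the 24 alternative fits its log2 fold change stayed between 0.090 and 0.13, with adjusted p between 0.337 and 0.899.

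The next smallest unadjusted p among the members belonged to *Srsf4*, which encodes an SR protein with a long RS domain. Its levels were 53.1, 53.6 and 55.9 TPM in female WT, 54.3, 54.7 and 53.7 TPM in male WT, 54.8, 57.6 and 56.7 TPM in female *Dek* cKO, and 56.3, 54.7 and 60.9 TPM in male *Dek* cKO. WT values of *Srsf4* were tight, within 53.1 to 55.9 TPM, and 4 of 6 *Dek* cKO values lay above them. Its log2 fold change was 0.067 (SE 0.036, 95% interval -0.011 to 0.15, limma adjusted p = 0.810). *Sf3b4*, which encodes an SF3B subunit that contacts the RNA next to the branch point, had levels of 34.2, 35.7 and 36.6 TPM in female WT, 30.7, 35.9 and 32.3 TPM in male WT, 34.5, 37.2 and 35.8 TPM in female *Dek* cKO, and 36.8, 35.6 and 37.6 TPM in male *Dek* cKO. Its 2 lowest values were in male WT, and its log2 fold change was 0.084 (SE 0.050, limma adjusted p = 0.846), or 0.053 without male WT replicate 1. *Magoh* levels were 41.4, 38.8 and 38.8 TPM in female WT, 43.1, 40.8 and 45.6 TPM in male WT, 37.8, 41.0 and 41.9 TPM in female *Dek* cKO, and 42.2, 47.6 and 53.7 TPM in male *Dek* cKO. The highest *Magoh* value was male *Dek* cKO replicate 3. For *Magoh* the log2 fold change was 0.082 (SE 0.077, limma adjusted p = 0.917), and without that library it was 0.023.

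**Figure D3:**
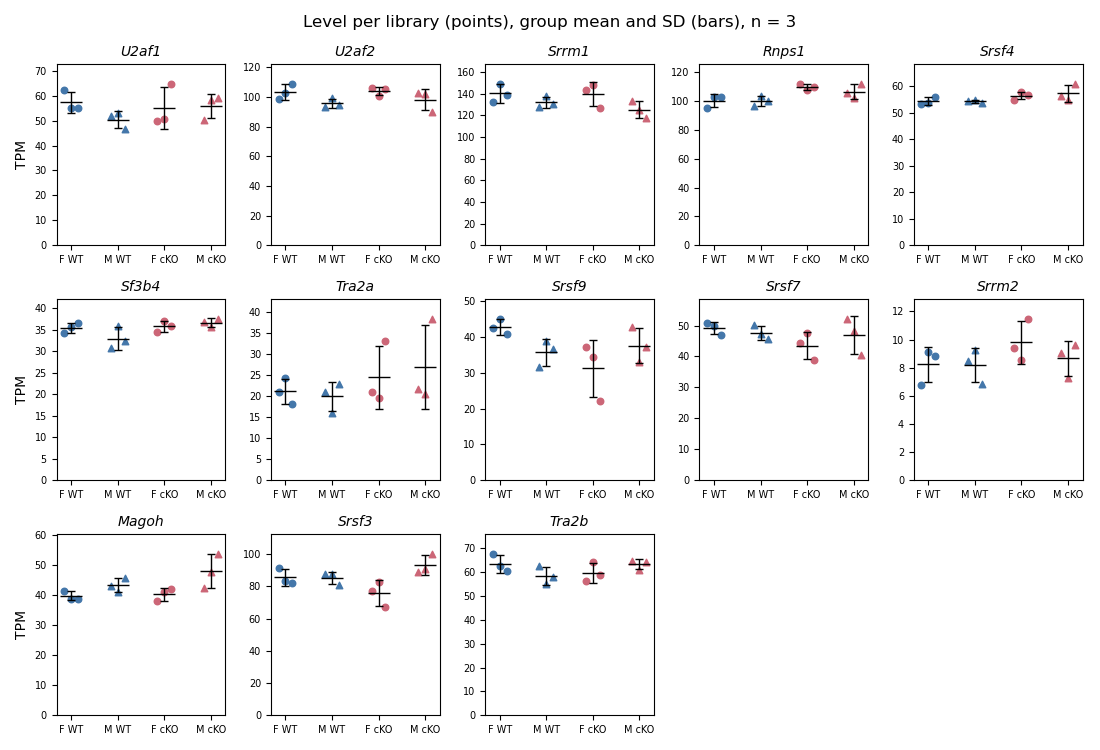
TPM per library (points, replicates 1 to 3 from left to right) for the 13 genes given library by library, with group means and SD as bars (n = 3); F and M are the sex labels, blue is WT and red *Dek* cKO, and axes start at 0. *Rnps1* values of female *Dek* cKO, between 107 and 112 TPM, lie above those of female WT. The 2 highest *Tra2a* values, 33.1 and 38.4 TPM, are *Dek* cKO replicate 3 of each sex label.

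*Tra2a*, a regulator that binds GA-rich exon sequences, had the largest fitted difference of the members, and it came from 2 libraries. Its levels were 20.9, 24.2 and 18.1 TPM in female WT, 21, 16.1 and 22.8 TPM in male WT, 20.9, 19.5 and 33.1 TPM in female *Dek* cKO, and 21.8, 20.6 and 38.4 TPM in male *Dek* cKO. The other 4 *Dek* cKO values, from 19.5 to 21.8 TPM, lay inside the WT range. The fitted log2 fold change was 0.28 (SE 0.17, 95% interval -0.080 to 0.65, limma adjusted p = 0.847), 0.16 without male *Dek* cKO replicate 3 and 0.023 without both replicate 3 libraries of *Dek* cKO. *Tra2b*, its close relative, had levels of 67.7, 62.4 and 60.4 TPM in female WT, 62.4, 54.9 and 58.1 TPM in male WT, 56.3, 64.4 and 58.7 TPM in female *Dek* cKO, and 64.7, 61.1 and 64.4 TPM in male *Dek* cKO. For *Tra2b* both replicate 3 libraries lay inside the WT range, and the log2 fold change was 0.015 (SE 0.055, limma adjusted p = 0.989).

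*Srrm2* levels were 6.80, 9.08 and 8.83 TPM in female WT, 8.46, 9.25 and 6.84 TPM in male WT, 9.37, 8.54 and 11.5 TPM in female *Dek* cKO, and 9.07, 7.25 and 9.64 TPM in male *Dek* cKO. The same replicate 3 libraries held its 2 highest values, and the log2 fold change was 0.16 (SE 0.12, 95% interval -0.086 to 0.41, limma adjusted p = 0.877), 0.099 without the library labelled female *Dek* cKO replicate 3 and 0.064 without both. *Srsf7*, a shuttling SR protein gene, had levels of 50.7, 49.9 and 47.0 TPM in female WT, 50.0, 47.3 and 45.6 TPM in male WT, 44.2, 47.6 and 38.8 TPM in female *Dek* cKO, and 52.2, 48.3 and 40.3 TPM in male *Dek* cKO. For *Srsf7* the replicate 3 libraries were the lowest of all 12. Its log2 fold change was -0.10 (SE 0.069, limma adjusted p = 0.864) with all libraries, -0.062 without the library labelled female *Dek* cKO replicate 3 and -0.012 without both.

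The libraries labelled female *Dek* cKO replicate 3 and male *Dek* cKO replicate 3 held the 2 highest values of *Tra2a* and *Srrm2*. They also held the 2 lowest values of *Srsf5*, *Srsf7*, *Snrnp70* and *Srpk2*. Such a pair of values was found in 6 of 36 members (16.7%), and in 9.23% of the 14160 genes that averaged 1 TPM or more. The pair was picked after the *Tra2a* values were seen, so these shares are a description. Both libraries expressed Y-linked genes, with *Eif2s3y* at 72.7 and 69.0 TPM, so the pair does not stand for both sexes. *Snrnp70*, the U1 protein that contacts SR proteins, stood at 88.7 and 98.5 TPM in these libraries and at 114 to 134 TPM in the other 10. *Srsf5* stood at 372 and 365 TPM there, with 376 to 446 TPM elsewhere, and *Srpk2* at 24.1 and 25.6 TPM, with 28.1 to 35.1 TPM elsewhere. The astrocyte gene *Gfap* was high in the same libraries, at 437 TPM in the one labelled female and 1267 TPM in the male one. It stood at 208 to 285 TPM in the other 10. *Aqp4*, another astrocyte marker, stood at 57.3 and 99.4 TPM in these libraries and at 43.3 to 56.6 TPM in the other 10. The summed level of the 4 astrocyte markers, all detected, was 554 to 637 TPM in WT and 537 to 1631 TPM in *Dek* cKO. In these libraries it was 809 and 1631 TPM, of which *Gfap* gave 437 and 1267 TPM. The remaining markers of the list, *Aldh1l1* and *Slc1a3*, were not read one by one. The values thus show high *Gfap* in both libraries, and a rise of all 4 astrocyte markers is not shown. The part of astrocyte RNA in the values of these members was not tested. Male *Dek* cKO replicate 3 held the highest or lowest value of 17 of 36 members (47.2%), and of 39.4% of all genes that averaged 1 TPM or more. Without both libraries 0 members passed the threshold and 1 had an unadjusted p under 0.05, and *Rnps1* had a log2 fold change of 0.090 (limma adjusted p = 0.632).

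**Figure D4:**
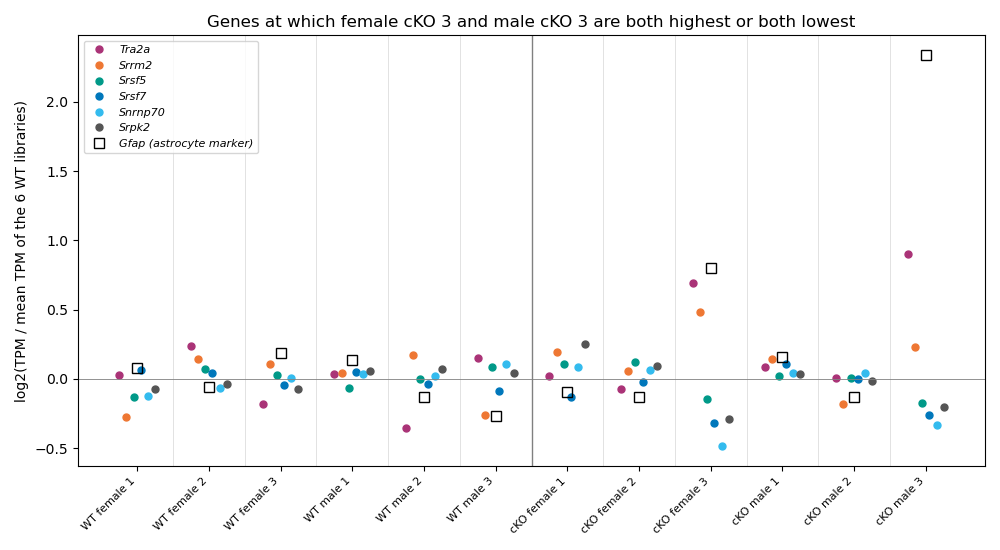
Log2 ratio of TPM to the mean of the 6 WT libraries, in each of the 12 libraries. Filled points are the 6 members at which the *Dek* cKO replicate 3 libraries, labelled female and male, were both highest or both lowest. Open squares are *Gfap*, and the grey line separates WT from *Dek* cKO. *Tra2a* and *Gfap* lie above 0 in both libraries while *Snrnp70*, at 88.7 and 98.5 TPM, lies below.

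In females, 0 of 36 members passed the threshold, where 0.0165% of tested genes did. Unadjusted p was under 0.05 for 2 members, *Srsf9* and *Rnps1*, against 5.79% of tested genes. The 3 *Dek* cKO and 3 WT values did not overlap in 3 members (8.33%), with *Rnps1* higher and *Srsf9* and *Srsf12* lower in *Dek* cKO, against 12% of tested genes. The median log2 fold change was 0.018, beside 0.015 over all tested genes, and 22 intervals lay within 1.2-fold of no change, as did 19.5% of those of all tested genes. For *Rnps1* the female log2 fold change was 0.13 (SE 0.056, unadjusted p = 0.0373, limma adjusted p = 0.845), 0.13 also without the library labelled female *Dek* cKO replicate 3. Without both libraries whose labels conflicted, 0 members passed in females and 3 had an unadjusted p under 0.05. The share of all tested genes at that p is not given for this fit. The 2 remaining *Dek* cKO values did not overlap the 3 WT values in 11 members, against 28% of tested genes.

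*Srsf9* encodes a small SR protein and had the largest difference in females. Its levels were 42.5, 45.1 and 40.8 TPM in female WT, 31.7, 39.0 and 36.6 TPM in male WT, 37.3, 34.4 and 22.2 TPM in female *Dek* cKO, and 42.9, 32.9 and 37.1 TPM in male *Dek* cKO. The lowest value was the library labelled female *Dek* cKO replicate 3, and the highest 3 of the WT values were all female. The log2 fold change was -0.48 in females (SE 0.17, unadjusted p = 0.0156, limma adjusted p = 0.804) and -0.26 without that library. In males it was 0.070 (SE 0.17, limma adjusted p = 0.982), and it turned to -0.027 without the library labelled male *Dek* cKO replicate 1. Over both sexes it was -0.21 (SE 0.13, 95% interval -0.50 to 0.083, limma adjusted p = 0.864), or -0.086 without the library labelled female *Dek* cKO replicate 3. The female WT libraries carry their own name prefix, which cannot be told apart from the group in this contrast. Without them, *Dek* cKO libraries of both sex labels differed from male WT alone by -0.075. That fit drops the prefix and female WT together, so it does not separate them.

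In males, 0 of 36 members passed the threshold, where again 0.0165% of tested genes did. Unadjusted p was under 0.05 for 1 member, *Sf3b4*, against 5.45% of tested genes, with a log2 fold change of 0.16 (SE 0.068, unadjusted p = 0.0430, limma adjusted p = 0.880). The genotypes did not overlap in 2 members (5.56%), *Srsf3* higher and *Srpk2* lower in *Dek* cKO, against 9.75% of tested genes. The median log2 fold change was 0.033, beside 0.020 over all tested genes, and 20 intervals lay within 1.2-fold, as did 19.4% of those of all tested genes. Without both libraries whose labels conflicted, 0 members passed in males, 2 had an unadjusted p under 0.05, the median was -0.0028 and the difference of *Sf3b4* was 0.15. Here too, the share of all tested genes at that p is not given. The 2 remaining *Dek* cKO values did not overlap the 3 WT values in 8 members, against 21.4% of tested genes.

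The genotype difference was then compared between the sexes as an interaction in the fit of all 12 libraries. No member passed (0 of 36, and 0% of tested genes), and 2 members had an unadjusted p under 0.05, against 4.23% of tested genes. *Srsf3*, which encodes the smallest of the classical SR proteins, had levels of 91.4, 83.3 and 82.0 TPM in female WT, 87.3, 87.7 and 80.9 TPM in male WT, 77.1, 82.9 and 66.9 TPM in female *Dek* cKO, and 89.0, 90.6 and 100.2 TPM in male *Dek* cKO. The *Dek* cKO values were the spread ones, lowest in the library labelled female replicate 3 and highest in male replicate 3, and the WT values of the 2 sexes overlapped. The log2 fold change was -0.18 in females and 0.13 in males, a difference of -0.31 (SE 0.12, unadjusted p = 0.0231, limma adjusted p = 0.966). Without the library labelled female *Dek* cKO replicate 3 the female value was -0.096 and the difference -0.22. The male value was 0.16 without the library labelled male *Dek* cKO replicate 1 and 0.075 without male *Dek* cKO replicate 3. Without both libraries whose labels conflicted, the difference was -0.26.

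For *Srsf9* the difference between the sexes was -0.55 (SE 0.24, unadjusted p = 0.0411, limma adjusted p = 0.966), and it was -0.33 without the same library and -0.23 without both libraries whose labels conflicted. For *Tra2b* it was -0.20 (SE 0.10, unadjusted p = 0.0671, limma adjusted p = 0.966), from -0.087 in females and 0.12 in males, and -0.18 without both libraries whose labels conflicted. With 1 library left out, the female value of *Tra2b* was nearest 0 without female WT replicate 1, at -0.040, and farthest without female *Dek* cKO replicate 2, at -0.14. Its male value was lowest without male WT replicate 2, at 0.073. Over all members, 5 had an unadjusted p under 0.05 in the interaction without the libraries of conflicting labels, and 0 passed. The share of all tested genes in that fit is not given here, so this count has nothing to be set against. Only 9 members had an interaction interval within 1.2-fold, and the intervals of the others reached beyond that size. The same was so for most tested genes, of which 5.16% had such an interval.

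**Figure D5:**
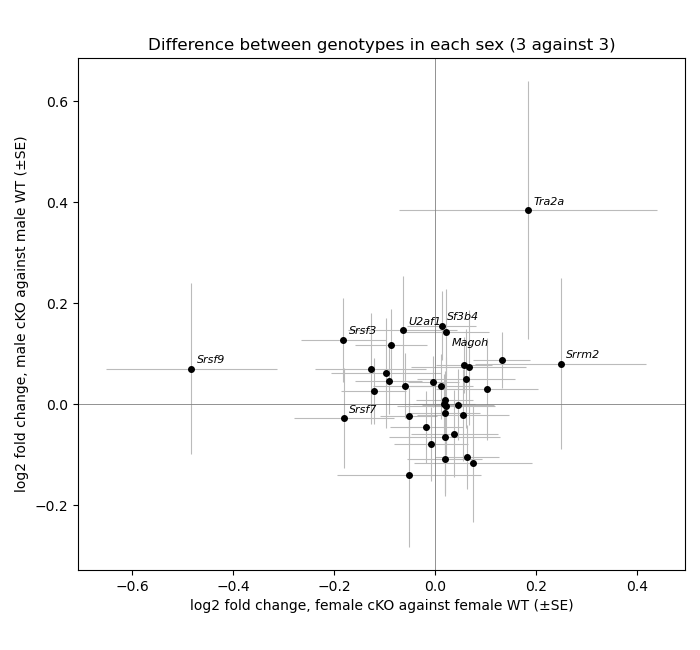
Log2 fold change between *Dek* cKO and WT in females (x axis) and in males (y axis) for the 36 genes, with SE from limma as grey bars (3 against 3 libraries in each sex) and the outlying genes named. *Srsf9* lies at -0.48 in females and 0.070 in males, and *Tra2a* at 0.18 in females and 0.38 in males. The female *Tra2a* value includes 33.1 TPM in the library labelled female *Dek* cKO replicate 3, which expressed Y-linked genes. Replicates 1 and 2 of that group, at 20.9 and 19.5 TPM, lay within the female WT range of 18.1 to 24.2 TPM.

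Among WT mice, male libraries were compared with female libraries. No splicing factor passed (0 of 36, and 0% of tested genes), and 2 had an unadjusted p under 0.05, against 3.63% of tested genes. These were the kinase gene *Clk4*, with a log2 difference of male over female of -0.18 (SE 0.065, limma adjusted p = 1), and the SR protein gene *Srsf10*, whose product represses splicing when dephosphorylated, with 0.16 (SE 0.071, limma adjusted p = 1). The *Srsf10* difference was 0.080 without female WT replicate 2 and 0.22 without female WT replicate 1. The values were above 0 for 13 members and below 0 for 23, with a median of -0.010, beside -0.012 over all tested genes. Intervals lay within 1.2-fold for 20 members and for 20.1% of tested genes. The library name prefix differs between these groups and cannot be told apart from sex here.

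The wider splicing machinery was read from a list of 115 other genes of U1, U2 and Sm proteins, the tri-snRNP, the Prp19 complex and the second step, hnRNPs, export factors, kinases and neuronal splicing regulators. In the comparison of both sexes 0 of 115 passed the threshold, against 0.148% of all tested genes, and 55 had positive fold changes. The median was -0.0042, beside 0.016 over all tested genes. Unadjusted p was under 0.05 for 2, both lower in *Dek* cKO, against 6.64% of tested genes. *Thoc2*, a subunit of the THO complex that couples transcription to mRNA export, averaged 43.5 ± 1.92 TPM in WT and 37.8 ± 3.06 TPM in *Dek* cKO (SD, n = 6 each), a log2 fold change of -0.21 (SE 0.056, unadjusted p = 0.00287, limma adjusted p = 0.339). *Hnrnpk*, which binds C-rich RNA, averaged 157 ± 8.94 and 145 ± 6.96 TPM, a log2 fold change of -0.11 (SE 0.046, limma adjusted p = 0.704). The next in order of p were *Hnrnpm* at -0.11, the neuronal STAR-family regulator *Khdrbs3* at -0.19 and the Sm protein gene *Snrpd3* at 0.11, with limma adjusted p of 0.765, 0.774 and 0.780. Unadjusted p was under 0.05 for 5 of the 115 in females, all lower in *Dek* cKO, against 5.79% of tested genes, and for 1 in males, also lower, against 5.45%. In the interaction it was under 0.05 for 8, of which 7 had a lower fold change in females than in males, against 4.23% of tested genes. Between WT sexes it was under 0.05 for 2, both lower in males, against 3.63%. None of the 115 passed the threshold in any of these.

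Many splicing factors control their own level by splicing in a poison exon, which sends the transcript to nonsense-mediated decay. In the GENCODE M21 annotation of GRCm38, 23 of the 36 members (63.9%) have a transcript of the nonsense-mediated decay class, against 25.5% of the 16181 protein-coding genes tested, and 29 (80.6%) have a transcript with a retained intron, against 52.6%. Of the 11 SR protein genes, 9 have a transcript of the decay class. The median number of annotated transcripts was 8 for the members and 5 for all protein-coding genes tested, so the members also have more transcripts in which such a class can be found. The TPM of a gene adds these transcripts to the coding ones. The values given here do not separate a shift between them from another change in the level of the gene.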

How the data were processed

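The authors deposited 1 table of gene-level TPM with a column for each of the 12 libraries. The submitters' processing notes name kallisto and mm10, while the paper's methods describe STAR and Salmon on poly-A selected, stranded, paired-end reads, and which of them wrote the table is not given in the sources used here. TPM keeps no read counts, so the counting error of a value cannot be computed from the table, and listed genes sum to 825750 to 845553 TPM per library. Ensembl IDs gave symbols from GENCODE M21 for 25245 of 26409 genes. Groups follow the labels. Replicates are taken as 1 mouse each.

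The 18197 genes that averaged 0.1 TPM or more were tested on log2(TPM + 0.1) with limma (version 3.58.1, R 4.3.3; two-sided, with a trend in the prior variance). Benjamini-Hochberg adjustment covered all of them. Fold changes are on that scale. Both sexes together were compared as 6 against 6 libraries, and the other contrasts came from 1 fit of the 4 groups. The members and lists were chosen with earlier results of these data known. Every member is named with its level. Library values are given for *U2af1*, *U2af2*, *Srrm1* and *Rnps1*, the 8 members with the smallest unadjusted p over both sexes and the 3 with the smallest in the interaction, and any member past the threshold. From the wider list come the 5 with the smallest p. *Gfap*, *Aqp4*, *Snrnp70*, *Srsf5*, *Srpk2* and *Magohb* values were added after values were seen. Alternatives were 0.5 or 1 TPM added, quantile normalization, median ratio rescaling, a filter at 1 TPM or none, sex as a covariate, no trend, a replicate block, fits on 6 libraries and libraries left out. The fitting code was also run on simulated data with known changes, larger than those fitted for the members over both sexes. That run does not measure power for the members, and its outcome is not given here. Tables and figures used Python 3.11.15, pandas 2.3.3, numpy 2.4.6 and matplotlib 3.10.9. The authors' own tests of these genes were not used.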

Additional observations from a re-analysis of the deposited data

Results flagged for a closer look

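Each member was screened for a single library far from the other 5 of its genotype, and 5 of 72 sets of 6 values were picked out. The share picked out over all tested genes is not given here, so whether 5 of 72 is many is not known. *U2af2* was low in male *Dek* cKO replicate 3, at 89.9 TPM with 101 to 106 TPM in the other *Dek* cKO libraries. *Sf3a3* was high in the same library, at 38.1 TPM with 27.3 to 29.6 TPM in the others. *Srsf1* was low in male WT replicate 1, at 95.6 TPM with 105 to 110.0 TPM in the other WT libraries. *Srpk1* was low in female WT replicate 1, at 24.9 TPM with 32.4 to 37.1 TPM in the other WT libraries, and high in the library labelled male *Dek* cKO replicate 1, at 37.8 TPM with 29.4 to 31.8 TPM in the other *Dek* cKO libraries. No member had *Dek* cKO values all above WT in one sex and all below WT in the other.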

How the results depend on the processing

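In all 5 comparisons 0 of 36 members passed under every alternative run, and 0 of 115 other splicing genes over both sexes. Leaving out 1 library at a time, the members' median log2 fold change ran from -0.0095 to 0.013 over both sexes, -0.015 to 0.031 in females, -0.0028 to 0.039 in males, -0.032 to 0.016 in the interaction and -0.042 to -0.0044 between WT sexes. Without both libraries of conflicting sex the male median was -0.0028. Some values near 0 changed sign, and the cause was not tested. Over both sexes, *U2af1* was -0.041 and *Srrm1* 0.013 without *Dek* cKO replicate 3 of each sex label, an alternative chosen after seeing the data. In the same comparison, *Srsf3* was 0.032 without both libraries of conflicting sex and *Tra2b* -0.0010 after quantile normalization. Leaving out 1 library, *U2af1* ran from -0.0056 to 0.083, *Srsf3* from -0.079 to 0.038 and *Tra2b* from -0.015 to 0.046. *Srsf9* in males was -0.027 without both libraries of conflicting sex and ran from -0.027 to 0.16 with 1 library left out. Over all alternatives the number of members with an unadjusted p under 0.05 ran from 1 to 2 over both sexes, 1 to 4 in females, 0 to 2 in males, 0 to 5 in the interaction and 1 to 8 between WT sexes. The shares of all tested genes under these alternatives are not given here, so these numbers have no background beside them.

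The replicate numbers are only numbers in the labels, and same-numbered libraries did not deviate together (correlations from -0.073 to 0.061). With a replicate block, 0 members passed in any comparison, *Rnps1* over both sexes was 0.11 (limma adjusted p = 0.747), and members with an unadjusted p under 0.05 numbered 0 in males and 8 between WT sexes. The share of all tested genes with this block is not given. The TPM table holds no read counts, so the precision of a single value cannot be taken from it. The SE of a fold change rests on the spread between libraries, shared over the groups of a fit and drawn toward a trend over all tested genes.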
